A study of Mus musculus with 9 samples.

Results

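The blood proteins of the complement and coagulation cascades are made largely by the liver, and 40 genes that encode them were followed here on liver arrays of 3 mouse models. The list was chosen with earlier results of these data known. Each gene was represented by the brightest of the probe sets that name that gene alone. A probe set is the group of short probes that reports one transcript. Of the 40 genes, 36 had such a probe set, out of 12393 genes with one on the array, and all 36 were bright enough to be tested among 8879 genes. The other 4 were C3, C4b, Cfd and Cpb2, and they were not analysed as single genes.

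The livers came from male mice of 2 months on a mixed C57BL/6 and 129/Sv background, and the models carry different alleles of the gene for Cpr, the reductase that supplies cytochrome P450 enzymes of the endoplasmic reticulum with electrons from NADPH. In Cpr-lox, the control, the Cpr gene is flanked by loxP sites. In liver-Cpr-null the floxed gene is deleted by a Cre recombinase under the albumin promoter, so the loss is in hepatocytes and the other liver cells keep the gene. In Cpr-low, Cpr expression is reduced throughout the body. For each model, RNA from 8 or 9 mice was combined into 3 pools, and every pool was hybridized to 1 Affymetrix MOE430A array.

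Complement is a chain of plasma proteases and binding proteins. Lectins and antibodies start it, C2 and the C3 and C4 proteins carry it forward, and C5 to C9 assemble into the membrane attack complex that perforates a target cell. Coagulation ends in thrombin, which turns fibrinogen into fibrin, and plasmin later dissolves the clot. Hepatocytes secrete most of these proteins, several of them as acute phase proteins that respond to inflammatory cytokines, while C1q and properdin come mainly from macrophages and other myeloid cells.

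All signals below are deposited array intensities scaled to a common trimmed mean, without a unit, and can be compared between arrays for a probe set but not between probe sets. They are given for pools 1, 2 and 3 in that order, with mean ± SD over n = 3 pools where a mean is printed. Log2 fold changes are on the log2(signal + 16) scale with their SE, and adjusted p-values come from 1 limma fit over all 9 arrays with Benjamini-Hochberg adjustment over the 8879 genes. A gene is said to rise or fall where that adjusted p was under 0.05. In whole liver, fewer cells of a type and less RNA per cell cannot be told apart. The labels do not say whether a mouse could enter more than 1 pool, and the p-values cover no more than the variation among pools. Hybridization fell on 2 dates, the first with 4 arrays (all Cpr-lox and Cpr-low pool 1) and the second with 5 (the other Cpr-low pools and all liver-Cpr-null), and recorded times of the dates were 102 minutes apart at their closest. The first scan date held the Cpr-lox arrays alone, and a difference by scan date cannot be told apart from a difference from the control. One control array stood apart for acute phase genes: the signal of Saa1, serum amyloid A1, was 4908, 2255 and 12325 in the Cpr-lox pools, and from 913 to 1991 in the other 6 arrays.

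In liver-Cpr-null against Cpr-lox, 9 of the 36 genes fell and 0 rose. They encode 3 terminal complement components (C9, Hc and C8g), the mannose-binding lectin Mbl1, the 3 fibrinogen chains, plasminogen and kininogen. Of all genes tested, 7.1% were called in this comparison, 3.44% as lower and 3.66% as higher. The median log2 fold change of the 36 genes was -0.18, beside -0.04 over all genes tested. The arrays of the models did not overlap for 13 genes that were lower in liver-Cpr-null, with 15.6% of all genes lower in that way, and for 3 that were higher, with 9.96% of all genes. With the hybridization date as a block, in which every value against Cpr-lox rests on Cpr-low pool 1, 0 of the 36 were called, and 1.68% of all genes were. The number of calls also depended on the scaling: 4 (C9, Hc, Mbl1 and C8g) fell with signals as deposited and 3 (C9, Hc and Mbl1) with the arrays scaled to a common median. Leaving out pool 1 or pool 2 of liver-Cpr-null gave 4 and 5 calls. Calls over all genes then numbered 348 and 434, beside 630 with every pool.

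**Figure D1:**
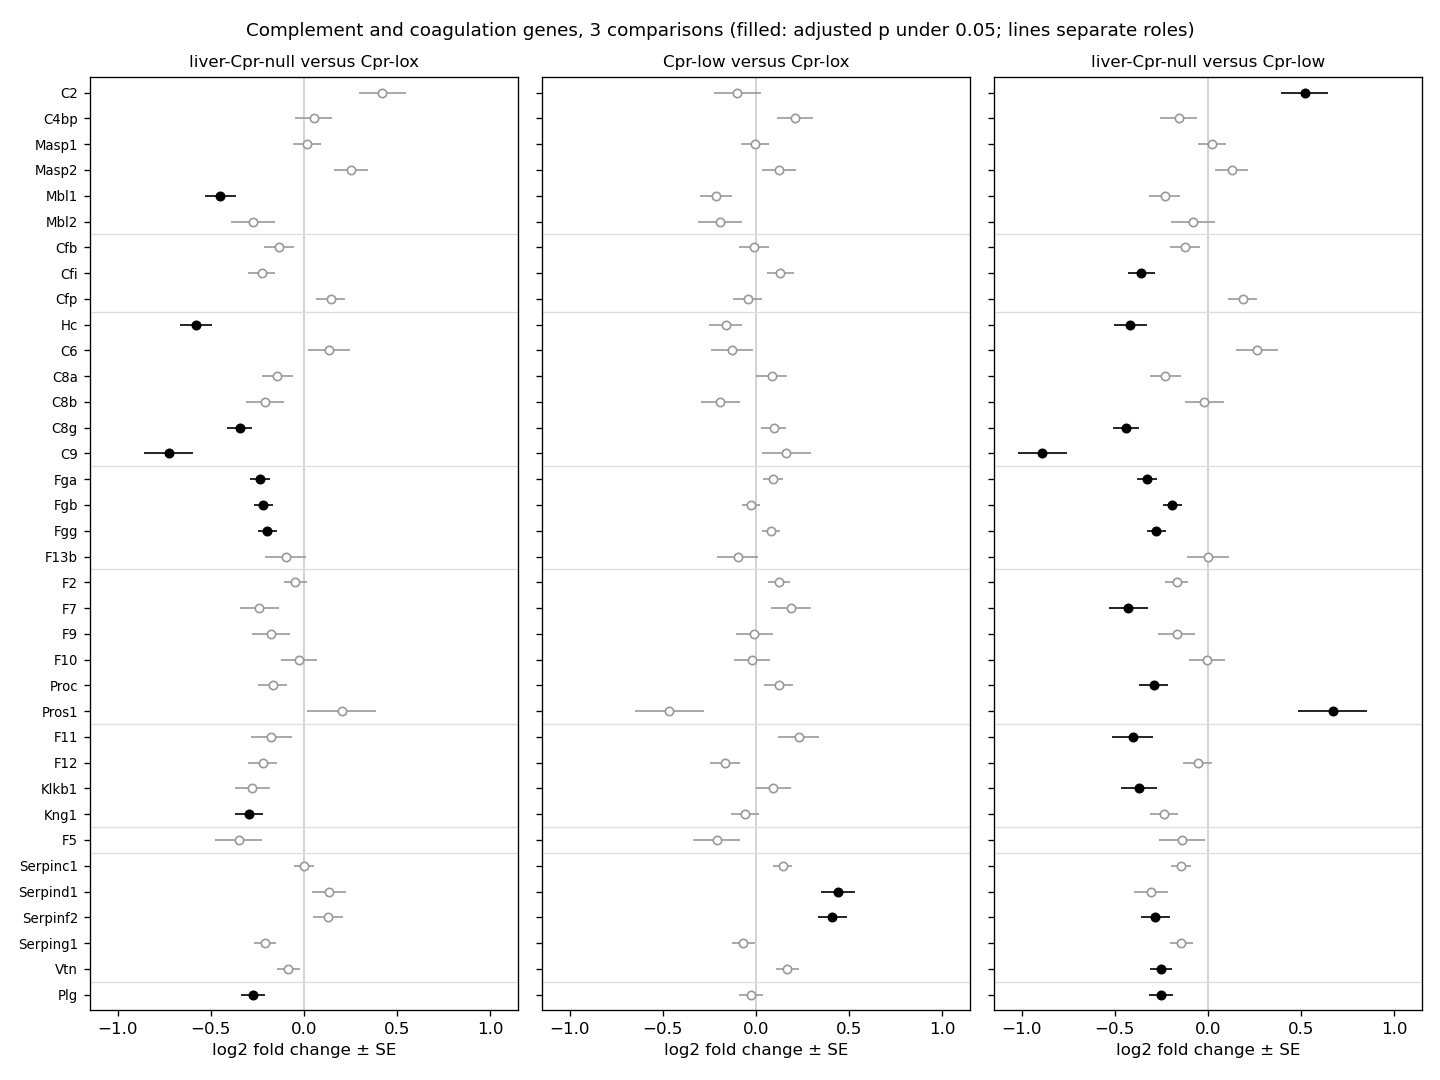
Log2 fold changes ± SE of the 36 genes in the 3 comparisons, 1 gene a line, with horizontal lines between roles and filled points for genes with an adjusted p under 0.05. In the left panel all 9 filled points lie to the left of 0, in the middle panel both lie to the right, and in the right panel 14 lie to the left and 2 to the right.

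In Cpr-low against Cpr-lox, 2 of the 36 genes rose and 0 fell, where 5.79% of all genes were called, 2.31% as higher and 3.48% as lower. With the date as a block 1 rose and 1 fell, beside 12.3% of all genes called. Both genes that rose over all arrays encode serpins, protease inhibitors of plasma: heparin cofactor II (Serpind1) and alpha-2-antiplasmin (Serpinf2). The median log2 fold change of the 36 was -0.01, beside 0.04 over all genes tested. Arrays did not overlap for 8 genes that were higher in Cpr-low (10.9% of all genes) and for 1 that was lower (10.6% of all genes).

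Liver-Cpr-null against Cpr-low, the comparison of the models with each other, gave 16 calls among the 36 genes: 14 fell and 2 rose. Over all genes tested, 8.42% were called, 3.76% as lower and 4.66% as higher. The median of the 36 was -0.18, beside -0.08 over all genes. This comparison can be made within the second hybridization date, with 3 arrays against 2, and there 10 of the 36 fell and 1 rose, beside 5.27% of all genes called (2.48% lower and 2.79% higher). With the date as a block 9 fell and 0 rose, beside 5.79% of all genes called. Arrays did not overlap for 21 genes that were lower in liver-Cpr-null (25.9% of all genes) and for 4 that were higher (10.8%). On other scalings the counts were 5 lower and 2 higher with signals as deposited, and 2 lower and 2 higher at a common median, where C9 and C8g were the lower and C2 and Cfp the higher. Left-out pools moved the count between 5 and 17. It was 9, 8 and 11 without Cpr-low pools 1, 2 and 3, where 513, 460 and 796 of all genes were called. Without liver-Cpr-null pools 1, 2 and 3 it was 5, 6 and 8, where 398, 403 and 544 of all genes were. With every pool, 748 of all genes were called. Both comparisons with liver-Cpr-null share its arrays, so the genes they have in common are no separate evidence.

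Among the 36 genes, the largest falls in liver-Cpr-null against Cpr-lox were those of the terminal complement components C9 and Hc. Against Cpr-low they were those of C9 and C8g, which is also a terminal component. Of the 6 terminal components measured, C9, Hc and C8g fell in liver-Cpr-null against either other model, and C6, C8a and C8b did not pass the test. C9, the pore-forming subunit of the membrane attack complex, had signals of 6109, 5919 and 9024 in Cpr-lox, 7477, 8120 and 7565 in Cpr-low and 4534, 3827 and 4145 in liver-Cpr-null. Every liver-Cpr-null array lay below every other array, and the Cpr-lox array at 9024 was the one with the high Saa1 signal. The log2 fold change of C9 was -0.73 ± 0.13 against Cpr-lox (adjusted p = 0.00442), and -0.53 without Cpr-lox pool 3 (adjusted p = 0.0028). Against Cpr-low it was -0.89 ± 0.13 (adjusted p = 0.00137), and the mean fell by 46.0%. Within the second date this was -0.91 ± 0.09 (adjusted p = 0.00267). C9 did not differ past the threshold between Cpr-low and Cpr-lox, at 0.16 with a 95% interval from -0.12 to 0.45, but rose there without Cpr-lox pool 3, at 0.36 (adjusted p = 0.0315).

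Hc encodes C5, whose cleavage starts assembly of the attack complex. Its signals were 5531, 5181 and 6538 in Cpr-lox, 5095, 5190 and 5049 in Cpr-low and 3584, 4074 and 3838 in liver-Cpr-null, with the last group again below all other arrays. The log2 fold change was -0.58 ± 0.09 against Cpr-lox (adjusted p = 0.00133) and -0.42 ± 0.09 against Cpr-low (adjusted p = 0.0106). The second of these was no longer called with signals as deposited (-0.35), at a common median (-0.33) or without liver-Cpr-null pool 1 (-0.37).

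C8g, the gamma chain of C8, stood at 6940, 6667 and 6906 in Cpr-lox, 7081, 7709 and 7143 in Cpr-low and 5458, 5021 and 5679 in liver-Cpr-null. The 3 groups were separate, with liver-Cpr-null lowest. The difference was -0.35 ± 0.07 against Cpr-lox (adjusted p = 0.00766) and -0.44 ± 0.07 against Cpr-low (adjusted p = 0.00177), and the first of these was lost at a common median (-0.31). C9 and C8g were called lower than in Cpr-low under all 22 alternative settings tried, which left out pools, changed the scaling, filter, pseudocount or probe set choice, or took account of the date. These settings share arrays and are no separate tests. The date block and the fit within the second date, for example, gave C9 the same difference, -0.91. Of the same protein, the alpha chain C8a had log2 fold changes of -0.14 ± 0.08 (adjusted p = 0.423) against Cpr-lox and -0.23 ± 0.08 (adjusted p = 0.113) against Cpr-low. The beta chain C8b had -0.21 ± 0.10 and -0.02 ± 0.10. C6 differed the other way, at 0.13 ± 0.11 and 0.26 ± 0.11, in neither case past the threshold.

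**Figure D2:**
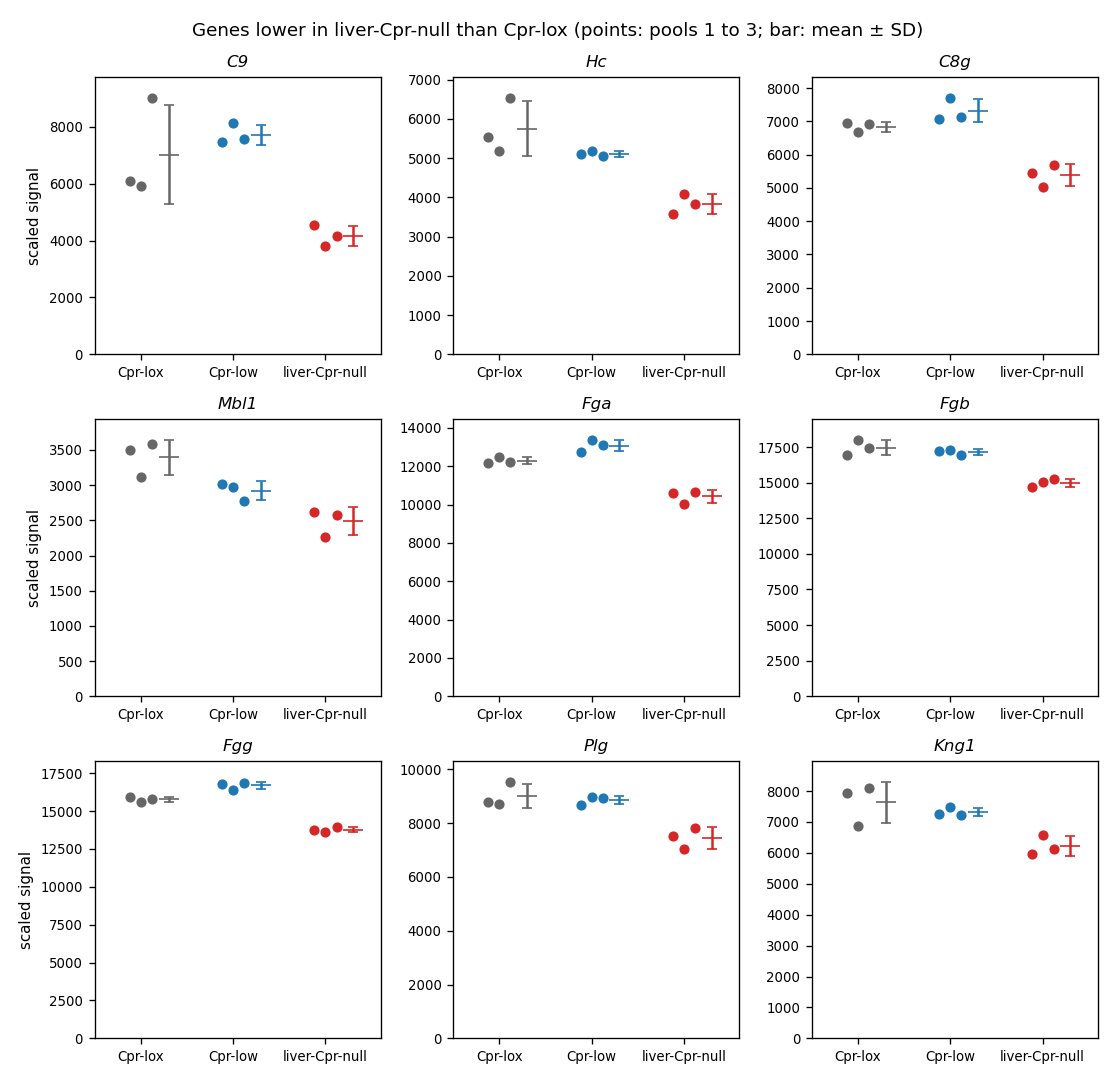
Scaled signals of the 9 genes that fell in liver-Cpr-null against Cpr-lox, 1 point a pool (pools 1 to 3 from left to right) with the mean ± SD beside them, and axes that start at 0. In each of the 9 panels the liver-Cpr-null points lie below the Cpr-lox points, and for C9 the Cpr-lox point at 9024 stands above the other 2.

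Among the genes of the first complement steps, Mbl1 was lower and C2 higher in liver-Cpr-null, each in 1 of its comparisons. Mbl1 encodes mannose-binding lectin A, which recognises microbial sugars. Its signals were 3493, 3112 and 3582 in Cpr-lox, 3019, 2974 and 2769 in Cpr-low and 2622, 2258 and 2580 in liver-Cpr-null, so that the models lay in that order without overlap. It fell by 0.45 ± 0.08 on the log2 scale against Cpr-lox (adjusted p = 0.00568). The difference between the 2 mutant models was -0.23 ± 0.08 (adjusted p = 0.109), and that between Cpr-low and Cpr-lox was -0.21 ± 0.08 (adjusted p = 0.192). Mbl2, the other mannose-binding lectin, was at -0.27 ± 0.12 against Cpr-lox (adjusted p = 0.245), with overlapping arrays.

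C2, the protease part of the convertase made by the classical and lectin routes, had signals of 842, 864 and 1256 in Cpr-lox, 847, 957 and 916 in Cpr-low and 1273, 1339 and 1307 in liver-Cpr-null. The liver-Cpr-null arrays were highest, and Cpr-lox pool 3 came close to them. C2 rose against Cpr-low by 0.52 ± 0.13 (adjusted p = 0.0239), also within the second date at 0.47 ± 0.07 (adjusted p = 0.0119). The call over all arrays did not hold with a date block (adjusted p = 0.0859), or without Cpr-low pool 1 (0.47) or any 1 of the liver-Cpr-null pools (0.50 to 0.54). Against Cpr-lox the difference of 0.42 ± 0.13 did not pass (adjusted p = 0.0664), and it was 0.61 without Cpr-lox pool 3 (adjusted p = 0.00124).

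Of the remaining genes of these steps, C4bp, a plasma inhibitor of the C4 branch, and the lectin pathway proteases Masp1 and Masp2 passed in none of the 3 comparisons. Masp2 was at 0.25 ± 0.09 against Cpr-lox (adjusted p = 0.132), while its dimmer probe set was at -0.05 ± 0.07. The brightest Masp1 probe set gave 0.02 ± 0.08 against Cpr-lox, whereas a dimmer one gave -0.36 ± 0.08 (adjusted p = 0.0215 over all probe sets), so the probe sets of this gene disagreed.

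Factor I, encoded by Cfi, inactivates C3b and C4b. Its signals were 6697, 6445 and 7619 in Cpr-lox, 7784, 7288 and 7607 in Cpr-low and 5684, 6107 and 5902 in liver-Cpr-null, which lay below both other models. It fell against Cpr-low by 0.36 ± 0.07 on the log2 scale (adjusted p = 0.00943; within the second date -0.34 ± 0.06, adjusted p = 0.0279), a call lost at a common median (-0.27). Against Cpr-lox it was at -0.23 ± 0.07 (adjusted p = 0.0877). Factor B, Cfb, the protease of the alternative pathway, was at -0.13 ± 0.08 and -0.12 ± 0.08 against Cpr-lox and Cpr-low (adjusted p = 0.44 and 0.315). Properdin, Cfp, which stabilises the alternative convertase, had the lowest signal of the 36 probe sets, with 219, 211 and 203 in Cpr-lox, 218, 197 and 198 in Cpr-low and 261, 224 and 222 in liver-Cpr-null, and a log2 fold change of 0.19 ± 0.08 against Cpr-low (adjusted p = 0.156).

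The 3 fibrinogen chains fell together in liver-Cpr-null by small amounts. Their genes lie side by side on chromosome 3 in GRCm38.p6, Fgg at chr3:83007724-83015056, Fga at chr3:83026153-83033627 and Fgb, on the opposite strand, at chr3:83042246-83049863. Because they moved together, the 250 bases before each RefSeq start site are shown, 5′ to 3′ on the gene's own strand, from the RefSeq promoter table of that build. Capitals mark GTTAAT, a half-site of the hepatocyte factor HNF1, and CTGGGA, the core of a response motif for interleukin-6 in fibrinogen genes, each read on either strand (so that GTTAAT may appear as ATTAAC).
Fgg, chr3:83007474-83007723, plus strand: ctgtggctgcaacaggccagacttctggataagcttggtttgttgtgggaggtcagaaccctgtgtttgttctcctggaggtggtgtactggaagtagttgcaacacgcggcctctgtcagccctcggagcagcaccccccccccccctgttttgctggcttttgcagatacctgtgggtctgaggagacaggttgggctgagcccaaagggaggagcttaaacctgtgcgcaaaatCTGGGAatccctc
Fga, chr3:83025903-83026152, plus strand: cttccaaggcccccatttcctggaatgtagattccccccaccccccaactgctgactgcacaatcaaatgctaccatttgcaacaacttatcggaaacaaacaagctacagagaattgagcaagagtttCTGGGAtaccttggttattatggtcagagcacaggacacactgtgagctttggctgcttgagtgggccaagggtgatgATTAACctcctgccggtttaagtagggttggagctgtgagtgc
Fgb, chr3:83049864-83050113, minus strand: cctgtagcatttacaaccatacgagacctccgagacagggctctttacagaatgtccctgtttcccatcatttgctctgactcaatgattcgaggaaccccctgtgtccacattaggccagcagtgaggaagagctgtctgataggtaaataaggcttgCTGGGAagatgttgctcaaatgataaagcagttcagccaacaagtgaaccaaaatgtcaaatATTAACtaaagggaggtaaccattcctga
The CTGGGA letters were found once in each window and GTTAAT in those of Fga and Fgb. Of 32851 promoter windows of this length, 27% hold CTGGGA and 6.43% GTTAAT. Of the 40 listed genes, 31 had a window, and 13 of these 31 hold CTGGGA and 9 hold GTTAAT. Among the genes with GTTAAT, Hc, Fga and Fgb fell in liver-Cpr-null against Cpr-lox. The others, C4bp, Cfp, C8a, C8b, F13b and Vtn, did not pass there, and C9, C8g, Mbl1 and Fgg fell without these letters. A link between the letters and the falls was not tested. The C/EBP motif TTGCNNAA, also searched on both strands, was in 7 of the 31 (Fga and Fgb among them) and in 9.56% of all windows. A match describes the letters and is not a site shown to be bound, and the motifs can overlap each other.

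Fga, the alpha chain, had signals of 12142, 12481 and 12209 in Cpr-lox, 12762, 13365 and 13109 in Cpr-low and 10611, 10041 and 10654 in liver-Cpr-null. The groups did not overlap, with Cpr-low highest. The log2 fold change was -0.23 ± 0.05 against Cpr-lox (adjusted p = 0.0196), where the mean fell by 15.0%, and -0.33 ± 0.05 against Cpr-low (adjusted p = 0.00292).

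Fgg, the gamma chain, kept the same order with 15960, 15595 and 15772 in Cpr-lox, 16816, 16418 and 16858 in Cpr-low and 13775, 13609 and 13957 in liver-Cpr-null. Its difference was -0.19 ± 0.05 against Cpr-lox (adjusted p = 0.0309) and -0.28 ± 0.05 against Cpr-low (adjusted p = 0.00416). Fgb, the beta chain, was at 16926, 18012 and 17428 in Cpr-lox, 17221, 17287 and 16910 in Cpr-low and 14692, 15075 and 15237 in liver-Cpr-null. Only liver-Cpr-null was separate here, and Fgb fell against Cpr-lox by 0.22 ± 0.05 on the log2 scale (adjusted p = 0.0198) and against Cpr-low by 0.19 ± 0.05 (adjusted p = 0.0355), a call lost without any 1 pool of those 2 models.

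The scaling matters for differences this small. Against Cpr-lox none of the 3 chains was called with signals as deposited or at a common median, where the differences were -0.16 to -0.21. In that comparison the call of Fga was also lost without Cpr-lox pool 1 or 2 or liver-Cpr-null pool 1 or 2. That of Fgb was lost without Cpr-lox pool 2 or any liver-Cpr-null pool, and that of Fgg without any pool of those 2 models or Cpr-low pool 2. Within the second date, against Cpr-low, Fga (-0.34 ± 0.06, adjusted p = 0.0157) and Fgg (-0.27 ± 0.05, adjusted p = 0.0245) fell and Fgb did not pass (adjusted p = 0.0801). F13b, the carrier subunit of the fibrin cross-linking factor XIII, was at -0.10 ± 0.11 against Cpr-lox (adjusted p = 0.73) and 0.00 ± 0.11 against Cpr-low.

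The vitamin K dependent proteins carry a carboxylated domain that binds calcium and membranes, and 0 of the 6 measured passed against Cpr-lox in either mutant model. F7, which with tissue factor starts coagulation, had signals of 1538, 1333 and 1798 in Cpr-lox, 1630, 1944 and 1730 in Cpr-low and 1330, 1344 and 1250 in liver-Cpr-null. It overlapped between liver-Cpr-null and Cpr-lox and was separate from Cpr-low, against which it fell by 0.43 ± 0.11 on the log2 scale (adjusted p = 0.0264; within the second date -0.48 ± 0.08, adjusted p = 0.0175). That call was lost without Cpr-low pool 2 or any 1 liver-Cpr-null pool (-0.36 to -0.45).

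Proc, the zymogen of the anticoagulant protein C, stood at 4972, 4474 and 4607 in Cpr-lox, 5102, 5447 and 4762 in Cpr-low and 3863, 4375 and 4274 in liver-Cpr-null. The last group was the lowest, and the difference from Cpr-low was -0.29 ± 0.08 (adjusted p = 0.038), with an adjusted p of 0.115 within the second date. Pros1, protein S, the cofactor of protein C, was dim and spread widely within the models, with 320, 422 and 538 in Cpr-lox, 229, 296 and 390 in Cpr-low and 423, 525 and 509 in liver-Cpr-null. It was 0.67 ± 0.18 higher in liver-Cpr-null than in Cpr-low (adjusted p = 0.0419) and 0.49 ± 0.13 within the second date (adjusted p = 0.0819). In Cpr-low against Cpr-lox it was at -0.47 ± 0.18 (adjusted p = 0.201), and at -0.82 ± 0.23 with the date as a block (adjusted p = 0.0435). Both calls between the mutant models, of Proc and of Pros1, were lost without Cpr-low pool 1 or 2 or any liver-Cpr-null pool, with values of -0.24 to -0.33 for Proc and 0.49 to 0.76 for Pros1. That of Pros1 was also lost without Cpr-lox pool 2.

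Prothrombin, F2, with means of 10924 ± 140 in Cpr-lox, 11904 ± 369 in Cpr-low and 10600 ± 625 in liver-Cpr-null, did not pass in any comparison. Nor did F9 and F10, factors IX and X, whose log2 fold changes in both mutant models against Cpr-lox lay between -0.18 and -0.01. Dimmer F10 probe sets gave 0.20 ± 0.10 and 0.26 ± 0.10 in Cpr-low against Cpr-lox, beside -0.02 for the one used. Their adjusted p was 0.423 and 0.252 over all probe sets. Factor V, F5, the cofactor of factor X, is not vitamin K dependent. Its signals were 3594, 3199 and 3766 in Cpr-lox, 2545, 3234 and 3393 in Cpr-low and 2405, 2666 and 3252 in liver-Cpr-null, at -0.35 ± 0.12 against Cpr-lox (adjusted p = 0.131).

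The contact system starts coagulation on surfaces and releases bradykinin. Kng1, kininogen, the precursor of bradykinin, had signals of 7938, 6886 and 8104 in Cpr-lox, 7247, 7489 and 7234 in Cpr-low and 5950, 6565 and 6141 in liver-Cpr-null. It was lowest in liver-Cpr-null, at -0.29 ± 0.07 against Cpr-lox (adjusted p = 0.0294), a call lost without Cpr-lox pool 1 or 3 or liver-Cpr-null pool 1 or 3 and at either other fixed scaling. A dimmer Kng1 probe set gave -0.24 ± 0.09 (adjusted p = 0.206 over all probe sets).

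Klkb1, plasma prekallikrein, was at 2239, 1785 and 2073 in Cpr-lox, 2011, 2270 and 2208 in Cpr-low and 1604, 1606 and 1801 in liver-Cpr-null. It fell against Cpr-low by 0.37 ± 0.09 (adjusted p = 0.0301) and, within the second date, by 0.42 ± 0.08 (adjusted p = 0.0281), and the call over all arrays was lost without Cpr-low pool 2 or 3 or liver-Cpr-null pool 1 or 2. F11, factor XI, had 632, 672 and 821 in Cpr-lox, 821, 888 and 780 in Cpr-low and 676, 542 and 657 in liver-Cpr-null. Its difference from Cpr-low was -0.40 ± 0.11 (adjusted p = 0.0396) and did not pass within the second date (-0.41 ± 0.11, adjusted p = 0.0815) or without Cpr-low pool 1 or 2, Cpr-lox pool 2 or any liver-Cpr-null pool (-0.31 to -0.46). F12, factor XII, passed in none of the comparisons and was at -0.22 ± 0.08 in liver-Cpr-null against Cpr-lox (adjusted p = 0.134).

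The 2 members that rose in Cpr-low against Cpr-lox, Serpind1 and Serpinf2, both encode inhibitors. Calls made up 5.56% of the 36 genes in that comparison, near the 5.79% of all genes tested. The inhibitors Serpinc1 and Serping1 did not pass there. Serpind1, heparin cofactor II, which blocks thrombin, had signals of 3308, 2994 and 3681 in Cpr-lox, 4467, 4630 and 4431 in Cpr-low and 3772, 3241 and 3950 in liver-Cpr-null. All Cpr-low arrays lay above all others. Serpind1 rose against Cpr-lox by 0.44 ± 0.09 on the log2 scale (adjusted p = 0.0119), a mean 35.5% higher. With the date as a block the value was 0.43 ± 0.13 (adjusted p = 0.0578), and without Cpr-lox pool 2 or Cpr-low pool 2, at 0.37 and 0.42, the call was lost.

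Serpinf2, alpha-2-antiplasmin, the main inhibitor of plasmin, had 3495, 3832 and 4346 in Cpr-lox, 5075, 5296 and 5110 in Cpr-low and 4294, 4210 and 4215 in liver-Cpr-null, with Cpr-low again above the rest. It rose by 0.41 ± 0.08 (adjusted p = 0.00785), and by 0.39 ± 0.11 with the date as a block (adjusted p = 0.0466). Within the first date, 1 Cpr-low array against 3 Cpr-lox arrays and with the lone array assumed to vary like the others, 0 of the 36 genes were called, where 4.98% of all genes were, and Serpinf2 was at 0.39 ± 0.13 (adjusted p = 0.119). At a common median neither serpin was called (0.39 for Serpind1 and 0.36 for Serpinf2), and with signals as deposited Serpind1 was not (0.40, adjusted p = 0.0534). In liver-Cpr-null, Serpinf2 was lower than in Cpr-low by -0.28 ± 0.08 (adjusted p = 0.0451; within the second date -0.29 ± 0.06, adjusted p = 0.0405), and this call was lost when any 1 pool of those 2 models or Cpr-lox pool 2 was left out. Against Cpr-lox, Serpind1 and Serpinf2 in liver-Cpr-null were both at 0.13, with 95% intervals from -0.06 to 0.33 and from -0.04 to 0.30.

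**Figure D3:**
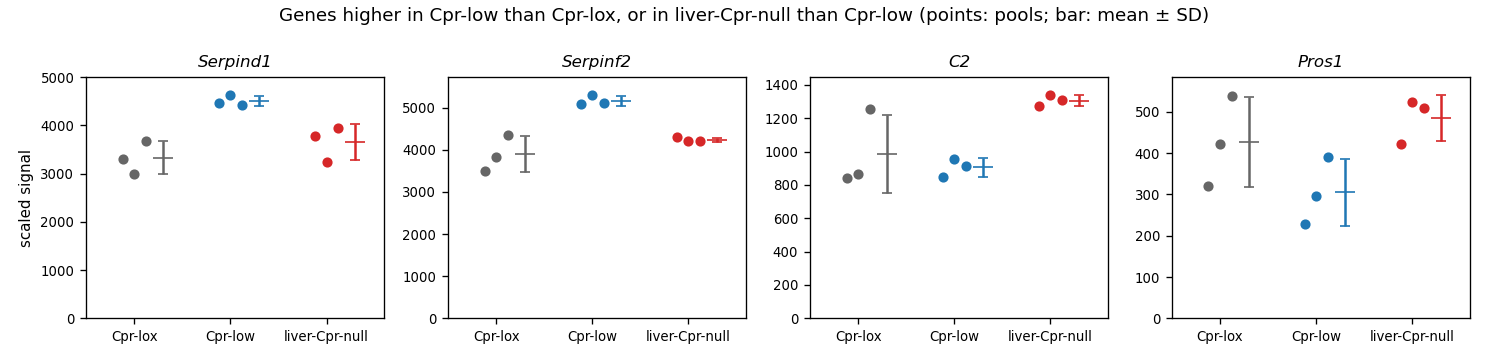
Scaled signals of Serpind1, Serpinf2, C2 and Pros1, 1 point a pool with the mean ± SD beside them, and axes that start at 0. The Cpr-low points lie above all others for both serpins, and the liver-Cpr-null points are highest for C2.

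Antithrombin, Serpinc1, the main inhibitor of thrombin, was also above Cpr-lox in every Cpr-low array, with means of 11522 ± 133 and 12736 ± 115, but the difference of 0.14 ± 0.05 did not pass (adjusted p = 0.152), and liver-Cpr-null was at 0.00 ± 0.05 against Cpr-lox. Serping1, the C1 inhibitor of complement and the contact system, had means of 8128 ± 331 in Cpr-lox, 7759 ± 146 in Cpr-low and 7031 ± 152 in liver-Cpr-null. Its -0.21 ± 0.06 in liver-Cpr-null against Cpr-lox was just outside the threshold (adjusted p = 0.0545). Vtn, vitronectin, which binds the terminal complement complex, had 10541, 10865 and 11671 in Cpr-lox, 12133, 12003 and 13049 in Cpr-low and 10360, 10226 and 10608 in liver-Cpr-null. It fell in liver-Cpr-null against Cpr-low by 0.25 ± 0.06 (adjusted p = 0.0241; within the second date -0.27 ± 0.06, adjusted p = 0.0489). That call was lost without Cpr-low pool 3 or any liver-Cpr-null pool (-0.21 to -0.27).

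Plasminogen, Plg, the precursor of the fibrin-dissolving protease, had signals of 8769, 8724 and 9536 in Cpr-lox, 8674, 8973 and 8924 in Cpr-low and 7517, 7018 and 7809 in liver-Cpr-null, below both other models. It was at -0.27 ± 0.06 against Cpr-lox (adjusted p = 0.0209) and -0.25 ± 0.06 against Cpr-low (adjusted p = 0.0313; within the second date adjusted p = 0.0658). Against Cpr-lox the call was lost without Cpr-lox pool 3 or liver-Cpr-null pool 1 or 2, and against Cpr-low without any Cpr-low pool or liver-Cpr-null pool 1 or 2.

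**Figure D4:**
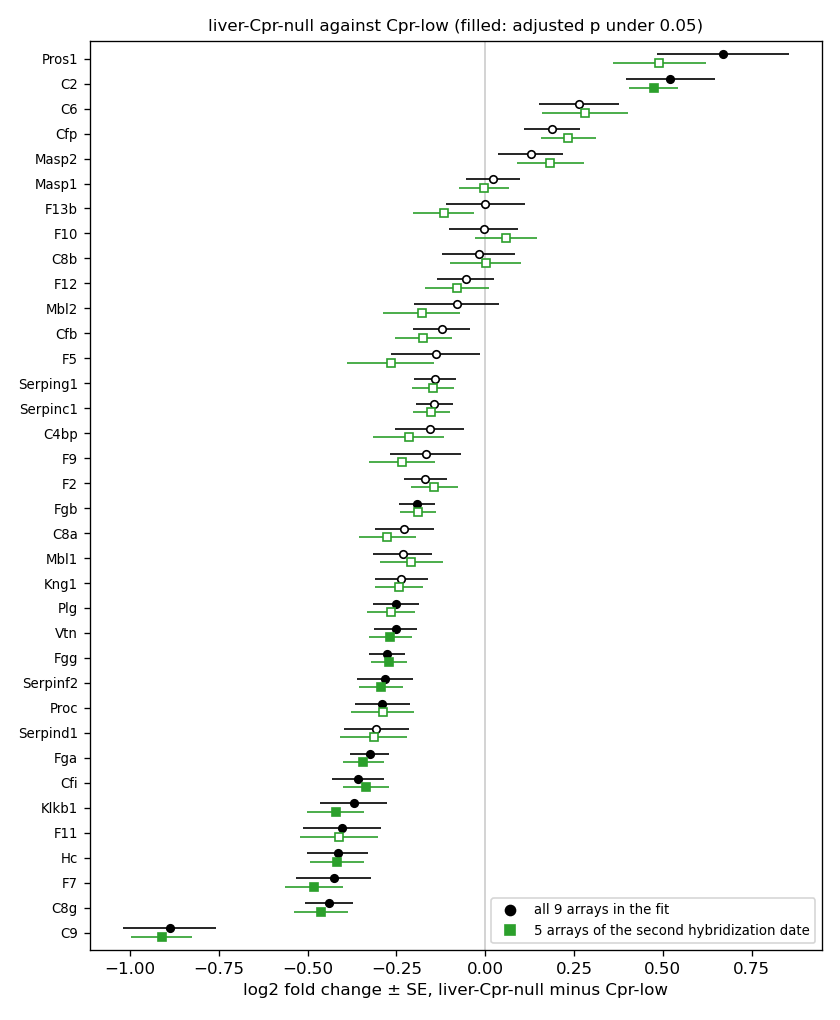
Log2 fold changes ± SE of liver-Cpr-null against Cpr-low for the 36 genes, from all 9 arrays (circles) and from the 5 arrays of the second hybridization date (squares), filled where the adjusted p was under 0.05. C9 lies farthest to the left on both, at -0.89 and -0.91, and of the 16 genes called over all arrays 11 are also filled within the date.

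Levels of some cell type markers also differed between the models. In liver-Cpr-null against Cpr-lox, 0 of 8 endothelial, 0 of 7 neutrophil, 0 of 3 platelet and 0 of 1 adipocyte markers were called. There 1 of 10 stellate cell and 1 of 3 lymphocyte markers rose and 0 fell. Of all genes tested, 3.66% rose and 3.44% fell in that comparison, and 4.66% and 3.76% against Cpr-low. Of 12 tested hepatocyte markers 4 fell and 0 rose in liver-Cpr-null against Cpr-lox, with a median of -0.18, and their summed signal was 134979 to 139385 in liver-Cpr-null, 153131 to 163610 in Cpr-lox and 152016 to 157315 in Cpr-low. Albumin, Alb, the main hepatocyte plasma protein, was at -0.12 ± 0.05 against Cpr-lox (adjusted p = 0.24) and -0.22 ± 0.05 against Cpr-low (adjusted p = 0.0235). Of 17 tested Kupffer cell and macrophage markers, 11 rose and 0 fell in liver-Cpr-null against each other model, with a summed signal of 13081 to 16675 beside 9849 to 10431 in Cpr-lox and 9014 to 9942 in Cpr-low. With the date as a block, 2 of these 17 rose against Cpr-lox and 10 against Cpr-low, and 3 of the hepatocyte markers fell against Cpr-lox. Of all 8879 genes, 52 rose and 97 fell against Cpr-lox with that block, and 290 rose against Cpr-low. The part of these marker shifts in the complement and coagulation results was not tested.

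The 3 C1q genes and Vsig4, complement genes of macrophages, rose in liver-Cpr-null against Cpr-lox, whereas properdin passed in none of the comparisons at the scaling used here. C1qb, a chain of C1q, the recognition protein of the classical pathway, had signals of 734, 740 and 675 in Cpr-lox, 636, 673 and 586 in Cpr-low and 928, 1282 and 933 in liver-Cpr-null, where all arrays were highest. It rose by 0.52 ± 0.11 against Cpr-lox (adjusted p = 0.0143) and 0.70 ± 0.11 against Cpr-low (adjusted p = 0.00249). C1qa, C1qc and Vsig4, the macrophage complement receptor CRIg, also rose against Cpr-lox, by 0.43, 0.46 and 0.39 (adjusted p = 0.0255, 0.00195 and 0.0143). All 4 calls against Cpr-lox were lost with the date as a block (adjusted p from 0.125 to 0.222). Of 17 further complement genes tested, those 4 rose and 1, the carboxypeptidase N subunit Cpn2, fell, beside 3.66% and 3.44% of all genes. The C1q genes and Vsig4 are also among the 17 macrophage markers counted above, so their rise is not separate from that count. Clec4f and Cd5l, Kupffer cell genes outside the complement system, rose by 0.54 and 0.94 against Cpr-lox (adjusted p = 0.00668 and 0.00116), and with a date block had adjusted p = 0.186 and 0.0853. They too are among those 17 markers, whose log2 fold changes against Cpr-lox ran from 0.05 to 0.94 with a median of 0.43.

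**Figure D5:**
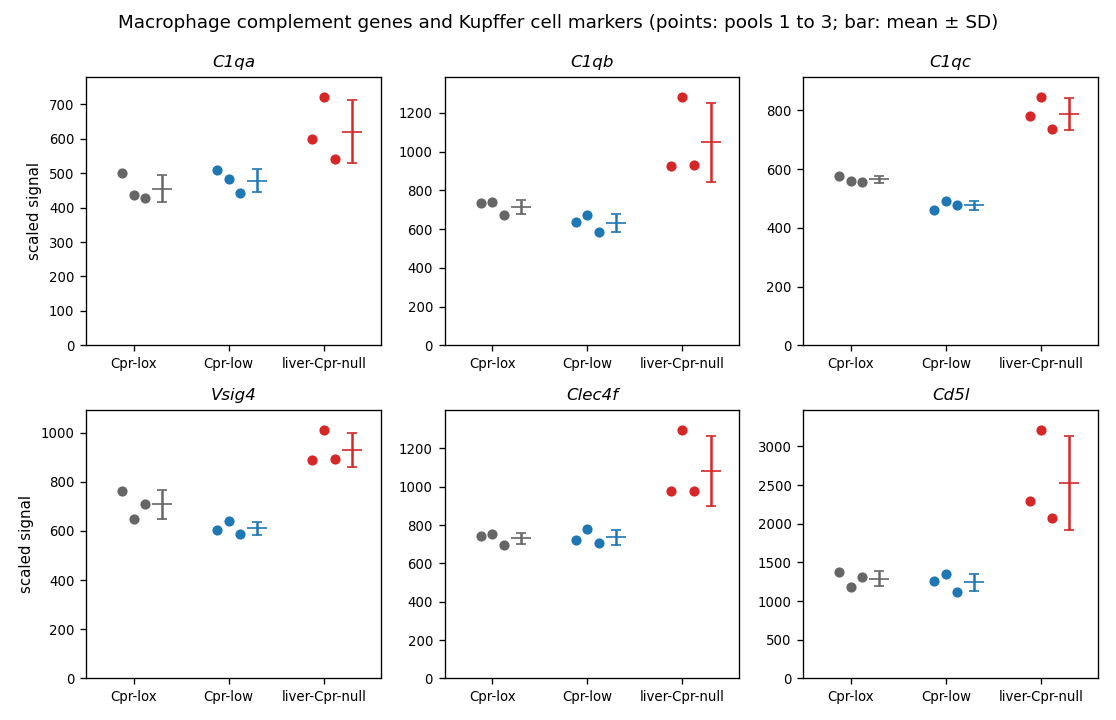
Scaled signals of the C1q genes, Vsig4 and the Kupffer cell markers Clec4f and Cd5l, 1 point a pool with the mean ± SD beside them, and axes that start at 0. In every panel the 3 liver-Cpr-null points lie above those of both other models.

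Among 18 further coagulation and fibrinolysis genes, 1 rose and 3 fell in liver-Cpr-null against Cpr-lox. A date block left 1 lower and 0 higher. Beside this list and those that follow, 3.66% of all genes rose and 3.44% fell in that comparison. The block left 1.68% of all genes called. Fn1, fibronectin, which is cross-linked into clots, had the largest fall, from 8715, 9067 and 9313 to 5220, 5992 and 5655 (-0.68 ± 0.08, adjusted p = 0.000307), and it was the gene still called with that block (-0.94 ± 0.12, adjusted p = 0.0046). The protease inhibitors Mug1 and Pzp of the alpha-2-macroglobulin family fell by 0.45 and 0.28 (adjusted p = 0.000654 and 0.0102). The thrombin receptor gene F2r rose by 0.78 ± 0.16 (adjusted p = 0.0107), and was at 0.37 ± 0.27 with the date block (adjusted p = 0.485).

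Fgl1, a fibrinogen-like protein of hepatocytes that is no fibrinogen chain, had signals of 3477, 5639 and 7771 in Cpr-lox, 1431, 1571 and 1571 in Cpr-low and 3586, 3335 and 3326 in liver-Cpr-null. In Cpr-low it fell by 1.80 ± 0.20 against Cpr-lox (adjusted p = 0.000232), whereas Fga, Fgb and Fgg were within 0.09 of 0 in that comparison. Cd59a, a membrane inhibitor of C9 assembly, was higher in Cpr-low than in Cpr-lox (0.65 ± 0.08, adjusted p = 0.000555). Its signals were 647, 673 and 749 in Cpr-lox, 1093, 1148 and 1035 in Cpr-low and 886, 790 and 875 in liver-Cpr-null. The liver-Cpr-null arrays thus lay between those of Cpr-lox and Cpr-low.

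Of 13 tested genes for vitamin K action and for processing in the secretory pathway, 5 rose and 0 fell in liver-Cpr-null against Cpr-lox. All 5 calls were lost with the date as a block, where the median of the 13 went from 0.30 to 0.08. Ggcx, the vitamin K dependent carboxylase, rose by 0.40 ± 0.11 (adjusted p = 0.0394). It was dim, with the filter level at 128, and liver-Cpr-null and Cpr-low were alike. Its signals were 136, 147 and 168 in Cpr-lox, 204, 175 and 223 in Cpr-low and 231, 188 and 189 in liver-Cpr-null. Vkorc1, which recycles the vitamin, was at -0.21 ± 0.06 (adjusted p = 0.0509). The translocon genes Sec61a1 and Sec61b rose by 0.49 and 0.54 and the disulfide isomerase P4hb by 0.40 (adjusted p = 0.00852, 0.00267 and 0.00768).

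Of 21 tested regulators of liver secretory genes, 5 fell and 0 rose in liver-Cpr-null against Cpr-lox. Only Hnf4a of the 21 fell with the date as a block. Hnf4a is also among the 12 hepatocyte markers counted above, so its fall is not separate from that count. Hnf4a, a nuclear receptor of hepatocyte identity, had signals of 5040, 5258 and 5174 in Cpr-lox, 3973, 4593 and 4305 in Cpr-low and 3885, 3791 and 3569 in liver-Cpr-null. It fell in liver-Cpr-null by 0.46 ± 0.07 (adjusted p = 0.00177; -0.62 ± 0.11 with the date block, adjusted p = 0.0239) and in Cpr-low by 0.27 ± 0.07 (adjusted p = 0.0489; -0.38 ± 0.09 with that block, adjusted p = 0.0248). Of 19 acute phase genes, 2 fell and 1 rose in liver-Cpr-null, Itih4 and Itih3 at -0.84 ± 0.08 and -0.83 ± 0.09 being the lower (adjusted p = 5.91e-05 and 0.00013), and both were also called with the date as a block (adjusted p = 0.0195 and 0.0218). Haptoglobin, Hp, was at -0.07 ± 0.06 (adjusted p = 0.606). In Cpr-low against Cpr-lox, 5 of the 19 acute phase genes fell and 2 rose, beside 3.48% and 2.31% of all genes.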

How the data were processed

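RNA pools of 3 mouse models, 3 per model, were measured on 9 Affymetrix MOE430A arrays from 5 micrograms of total RNA each, per the labels and file headers. The deposited values are linear intensities, whole numbers for each probe set. The authors' probe summary, background step and scaling are not stated in the labels or headers, which leaves the fold changes of dim genes uncertain. The number of arrays limits the precision.

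Trimmed means (2%) of the arrays differed by 10.2%, above a tolerance of 5%, so signals were scaled to a common trimmed mean. Of 22690 probe sets, 64 were controls, 20380 had 1 symbol in GEO's platform annotation, 691 several and 1555 none. Values were log2(signal + 16). Probe sets were ranked by mean log2 signal, the upper 60% were tested, and a gene's brightest one represented it. One limma 3.58.1 fit (R 4.3.3; lmFit, contrasts, eBayes with an intensity trend, two-sided) covered all arrays, and it was tested on simulated data. Genes named were all 40 listed genes, up to 6 called members of each further list by smallest adjusted p, and set reference genes. The listed genes and further lists were chosen with earlier results of these data known. Same-numbered pools did not deviate together in every pair (correlations -0.21 to 0.46 over 9 pairs, 6 above 0.1), so pool numbers were not taken to pair samples. Alternatives changed the pseudocount (1, 64), scaling, filter, trend, probe set rule, pool number or hybridization date as a block, the models in the fit and the pools included. Expression of the Cpr gene itself was not used here to check the labels. Plots used Python 3.11.15 and matplotlib 3.10.9.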

Additional observations from a re-analysis of the deposited data

How the results depend on the processing

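The numbers of complement and coagulation genes called were compared over 21 alternatives for liver-Cpr-null against Cpr-lox and 22 for each other comparison. Called genes of the 36 kept their sign under every alternative. For liver-Cpr-null against Cpr-lox (9 calls) the count was 4 with signals as deposited, 3 at a common median and 0 with the hybridization date as a block, and 4 to 10 when 1 pool was left out. For Cpr-low against Cpr-lox (2 calls) it was 1 with signals as deposited, 0 at a common median, 0 within the first date and 1 to 3 with a pool left out. For liver-Cpr-null against Cpr-low (16 calls) it was 7 with signals as deposited, 4 at a common median, 9 with the date as a block and 5 to 17 with a pool left out. With a pool left out, calls over all genes were 348 to 757, 274 to 494 and 398 to 796 in these 3 comparisons. The cause was not tested. Over all genes tested, 325 of 630 calls were higher in liver-Cpr-null than in Cpr-lox, beside 335 of 539 with signals as deposited and 304 of 449 at a common median. In Cpr-low against Cpr-lox 205 of 514 calls were higher, beside 137 of 432 and 102 of 351, and between the mutant models 414 of 748, beside 521 of 700 and 524 of 655. With the date as a block, 149 and 1090 genes were called against Cpr-lox in liver-Cpr-null and Cpr-low. With the pool number as a replicate block the counts of the 36 were 11, 3 and 17. Quantile normalization, either pseudocount, no filter or a stricter one, no trend, the mean of probe sets and fits of 2 models kept each count within 1.5 times. The signal of the brightest of the 36 genes, up to 17885 as deposited, lay below the highest signal of every array, 29334 or more. The lowest mean scaled signal of the 36 was that of Cfp, 217, beside a filter level of 128.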

Other observations

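The C4 genes could be seen only on a probe set that names both C4a and C4b, which is why it was left out above. Its scaled signals were 7650, 8075 and 9201 in Cpr-lox, 8118, 8304 and 8846 in Cpr-low and 6740, 6654 and 6980 in liver-Cpr-null, with the last group lowest. The log2 fold change in liver-Cpr-null was -0.31 ± 0.08 against Cpr-low (limma adjusted p = 0.0339 over all probe sets) and -0.29 ± 0.08 against Cpr-lox (adjusted p = 0.0541). Cpr-low against Cpr-lox was at 0.02 ± 0.08 (adjusted p = 0.912).

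Of the 36 genes, 6 had more than 1 probe set that names the gene alone. The second probe set of Vtn gave -0.31 ± 0.07 in liver-Cpr-null against Cpr-low (adjusted p = 0.0302 over all probe sets), beside -0.25 for the brighter one.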
